A study of Mus musculus with 3 samples.

Results

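Plasmacytoid dendritic cells (pDC) made up 121 of the 5650 cells kept from 3 TH-MYCN mouse tumors, or 2.14% of the cells and 5.48% of their unique molecular identifiers (UMIs, the count of distinct captured RNA molecules). A kept cell was counted as pDC when its raw counts held a UMI of Siglech and of at least 1 more of Ccr9, Cox6a2, Klk1 and Pacsin1, together with fewer than 2 of the T cell genes Cd3e, Cd3d, Cd3g and Trac and fewer than 2 of the B cell genes Cd79a, Ms4a1 and Pax5. The cells were thus selected on the measured counts of these genes, whose values are given as a description, with no test.

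Plasmacytoid dendritic cells are rare immune cells that are best known for making large amounts of type I interferon when they sense viral or self nucleic acids in their endosomes. Their identity depends on the transcription factor Tcf4 (E2-2), with Irf8, Bcl11a, Runx2 and Spib also known to act in their development or function. They carry a secretory machinery like that of plasma cells and some lymphoid transcripts. In solid tumors they have often been described as poor interferon producers.

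All 3 libraries belonged to 1 group: whole neuroblastomas of mice heterozygous for a human MYCN transgene driven by the promoter of tyrosine hydroxylase (TH), which is active in the sympathetic lineage, in otherwise immunocompetent animals. Tumor 1, tumor 2 and tumor 3 came from 1 mouse each, at 62, 79 and 63 days of age. Tumors were dissociated with enzymes and profiled by droplet single-cell RNA-seq of transcript 3′ ends, without sorting, so no treated or control group exists and no comparison between conditions was made. The comparisons here are between the pDC and other immune cells of the same tumors.

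The 3 libraries differed in depth. The kept cells numbered 1914, 1221 and 2515 in tumors 1, 2 and 3, with a median of 4282.5, 1594 and 1816 UMIs per cell. Tumor 1 stood apart, because it held 102 of the 121 pDC, against 2 in tumor 2 and 17 in tumor 3. The pDC had a median of 10924.5, 2650 and 2502 UMIs per cell, and 1078506, 5300 and 44277 UMIs in all. A summed count of 0 in the pDC therefore allowed a level of up to 2.78 CPM (UMIs of a gene per 1e6 UMIs of the sum) in tumor 1, 67.8 CPM in tumor 3 and 566 CPM in tumor 2. Kept cells of tumors 1 and 2 shared 3 barcode sequences, those of tumors 2 and 3 shared 1, and none of these was a pDC. All intervals given cover counting error only.

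The pDC share of kept cells was 5.33% in tumor 1 (95% exact binomial interval 4.37 to 6.43), 0.164% in tumor 2 (0.0198 to 0.590) and 0.676% in tumor 3 (0.394 to 1.08), a mean of 2.06% ± 2.85 (SD, n = 3). The spread between tumors was thus wider than the mean. Tumor 1 also held most of the other immune cells. Among kept cells that met the rule or passed a marker gate of at least 1 other immune class (B, T and NK cells, mononuclear phagocytes and neutrophils), the pDC took 8.30% of 1229 cells in tumor 1 (6.82 to 9.98), 1.67% of 120 in tumor 2 (0.202 to 5.89) and 12.2% of 139 in tumor 3 (7.29 to 18.9). Of these immune cells, tumors 1 and 3 had overlapping intervals, whereas of all kept cells tumor 1 lay far above the others. Cells with few UMIs could meet the rule less easily, and the part of depth in these shares was not tested.

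**Figure D1:**
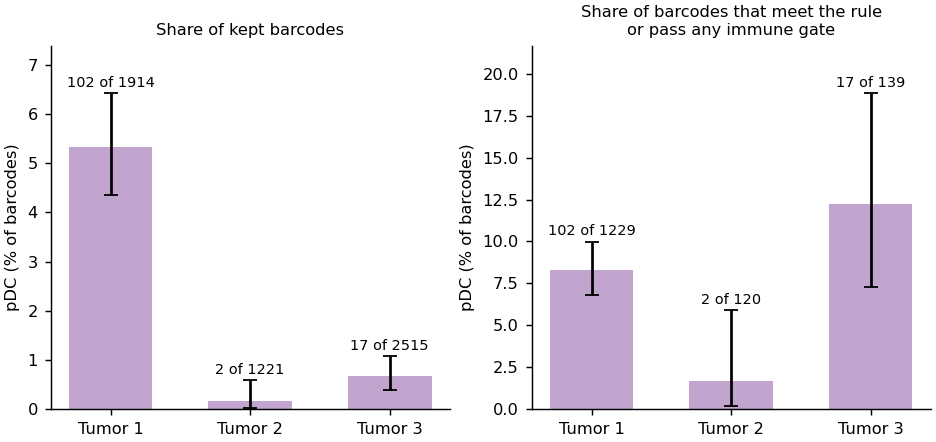
Share of pDC in each tumor, in percent, among all kept cells and among cells that met the rule or passed any immune gate, with exact 95% binomial intervals. Of all kept cells the bar of tumor 1 (5.33%) stands above those of tumors 2 and 3 (0.164% and 0.676%), and of immune cells the intervals of tumors 1 and 3 overlap.

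The genes that chose the cells were read at uneven rates in the 2 tumors with more than 2 pDC. Siglech, a sialic acid-binding surface receptor used to mark mouse pDC, had 2544 CPM in the summed pDC of tumor 1 and 1649 CPM in those of tumor 3, with a median of 28 UMIs per cell in tumor 1 and 4 in tumor 3. Ccr9, a receptor for the gut chemokine Ccl25, had 512 and 339 CPM. Cox6a2, a subunit of cytochrome c oxidase known from muscle, had 451 and 294 CPM. Of the remaining rule genes, Klk1, a tissue kallikrein, had 409 CPM in tumor 1 and 45.2 CPM in tumor 3. Pacsin1, an endocytosis adaptor known from neurons, had 246 and 136 CPM. In tumor 1, a UMI of Siglech was present in 102 of 102 pDC, as the rule requires, of Ccr9 in 89, of Klk1 and Pacsin1 in 78 each and of Cox6a2 in 67. In tumor 3 the same 5 genes were found in 17, 11, 2, 5 and 4 of 17 cells.

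The cells of tumor 1 met the rule by a wider margin than those of tumor 3. In tumor 1, 46 pDC held all 5 positive genes, 29 held 4, 14 held 3 and 13 held only 2. In tumor 3, 12 held 2 and 5 held 3. Of the 2 cells of tumor 2, 1 held 2 genes and 1 held 3. Just inside the threshold, the 13 pDC of tumor 1 with Siglech and 1 other gene had 2236 CPM of Irf8, 1267 CPM of Tcf4, 2268 CPM of Bst2 and 938 CPM of Ly6d, genes that the rule did not use. Just outside it, 42 kept cells of tumor 1 with Siglech alone had 335, 155, 177 and 11.3 CPM of these genes, at a median of 2717 UMIs per cell against 3093 inside. In tumor 3 the 12 cells inside had 1473 CPM of Irf8, 1473 CPM of Tcf4, 993 CPM of Bst2 and 864 CPM of Ly6d, and the 14 cells with Siglech alone had 537, 873, 504 and 33.6 CPM. The edge of the rule was thus less sharp in tumor 3 for Irf8, Tcf4 and Bst2, while Ly6d stayed far lower outside. Of these 14 cells, 11 held a UMI of Tcf4, a gene that the tumor cells also carried, as given below.

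The sequences before the start sites of some rule and marker genes are shown because E proteins such as Tcf4 bind E-box motifs, and because nearly all UMIs of some of these genes lay in the pDC. For 12 of 18 genes asked for (4 rule genes, Irf8, Bst2 and 6 of the genes with the largest difference), RefSeq promoters of build GRCm38.p6 were at hand, 14 in all, each from 250 bases before to 50 bases after the start. The E-box CAGGTG, or its reverse complement on the other strand, was present in 8 of 14, against 20.2% of all 32851 promoters of this length. The E-box CAGCTG, which reads the same on both strands, was present in 3 of 14, against 16.3%. The composite motif of Ets and interferon regulatory factors (GGAA and GAAA spaced by 2 bases, either strand) was present in none, against 2.72%, and the interferon response motif (GAAA and GAAA spaced by 2 bases, either strand) in 1, Bst2, against 3.44%. A match is a description of letters and not a bound site. In the 5 promoters printed here, capitals mark CAGGTG or CACCTG, its reverse complement, in Siglech (chr7:55767934-55768233, plus strand), Ccr9 (chr9:123766961-123767260, plus strand) and Klk1 (chr7:44225110-44225409, plus strand), and CAGCTG in Ptcra (chr17:46763663-46763962, minus strand). In Bst2 (chr8:71537423-71537722, minus strand) they mark CAGGTG and 2 overlapping copies of the interferon response motif. Counted from the start site, the first base of the motif lies at -20 in Siglech, -85 in Ccr9, -87 in Klk1 and -205 in Bst2, and the 3 copies in Ptcra begin at -60, -49 and 22.
Siglech: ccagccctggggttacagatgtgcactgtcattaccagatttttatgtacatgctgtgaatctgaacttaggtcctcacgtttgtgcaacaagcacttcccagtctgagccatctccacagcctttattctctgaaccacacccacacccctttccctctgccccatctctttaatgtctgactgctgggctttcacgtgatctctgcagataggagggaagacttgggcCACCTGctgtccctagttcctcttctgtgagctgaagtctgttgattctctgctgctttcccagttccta
Ccr9: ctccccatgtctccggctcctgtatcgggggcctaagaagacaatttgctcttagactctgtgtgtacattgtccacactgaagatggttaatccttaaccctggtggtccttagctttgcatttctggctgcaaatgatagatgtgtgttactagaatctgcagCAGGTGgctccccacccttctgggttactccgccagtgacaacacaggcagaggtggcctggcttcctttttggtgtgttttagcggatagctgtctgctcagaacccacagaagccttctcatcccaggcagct
Klk1: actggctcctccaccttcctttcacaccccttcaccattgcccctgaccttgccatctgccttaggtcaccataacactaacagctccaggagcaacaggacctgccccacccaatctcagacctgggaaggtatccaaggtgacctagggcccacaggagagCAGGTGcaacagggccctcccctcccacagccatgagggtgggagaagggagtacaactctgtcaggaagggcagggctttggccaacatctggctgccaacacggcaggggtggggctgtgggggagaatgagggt
Ptcra: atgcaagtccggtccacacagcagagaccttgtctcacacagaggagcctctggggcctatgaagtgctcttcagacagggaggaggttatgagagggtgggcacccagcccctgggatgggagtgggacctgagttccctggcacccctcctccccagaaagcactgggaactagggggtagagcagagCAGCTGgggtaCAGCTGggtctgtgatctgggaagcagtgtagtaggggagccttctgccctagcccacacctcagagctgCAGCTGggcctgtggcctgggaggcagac
Bst2: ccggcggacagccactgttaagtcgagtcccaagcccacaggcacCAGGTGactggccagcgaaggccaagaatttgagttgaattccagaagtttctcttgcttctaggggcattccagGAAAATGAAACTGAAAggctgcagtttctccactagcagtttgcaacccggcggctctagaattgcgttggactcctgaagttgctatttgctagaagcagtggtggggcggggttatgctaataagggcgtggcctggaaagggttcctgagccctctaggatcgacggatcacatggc

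To compare the pDC with other immune cells, raw UMIs were summed per tumor and class wherever a class had at least 10 cells. This gave 8 sums: pDC of tumors 1 and 3, B cells of tumor 1 (175 cells), T cells of tumors 1 and 2 (107 and 14 cells) and mononuclear phagocytes of tumors 1, 2 and 3 (405, 36 and 78 cells). The other classes were gated on at least 2 of Cd79a, Ms4a1 and Pax5 for B cells, of Cd3e, Cd3d, Cd3g and Trac for T cells and of Csf1r, Adgre1 and Cd68 for mononuclear phagocytes, and no gene of the rule or of these gates was tested. Cells that passed 2 or more gates, of these or other classes, were left out. The pDC were kept whatever other gate they passed, and 20 of the 102 pDC of tumor 1 also passed that of mononuclear phagocytes. The 2 pDC of tumor 2 entered no test. CPM are given as counted, while fold changes, all on the log2 scale, were fitted after scaling by TMM factors, which ran from 0.789 to 1.67. Of 9338 genes tested with edgeR, 219 were higher in the pDC than in the mean of the 3 other classes (2.35% of genes) and 9 were lower (0.0964%), or 2.44% in either direction, and with each tumor as a block these counts were 534 and 99. Against the mean, calls were mostly in the higher direction in both fits. Against the B cells 60 genes were higher (0.643%) and 56 lower (0.6%), 1.24% in either direction, or 445 and 185 with the block, and 193 and 67 when library sizes alone set the scale. Against the T cells 135 were higher (1.45%) and 61 lower (0.653%), 2.1% in either direction, or 489 and 250 with the block. Against the mononuclear phagocytes 158 were higher (1.69%) and 56 lower (0.6%), 2.29% in either direction, or 367 and 508 with the block. The classes come from the same mice, so the block pairs them by animal, but it leaves 2 residual degrees of freedom in place of 4. Percentages of all genes given below belong to the fit without the block. List counts with the block are to be read beside the block counts of 9338 genes given here. Without the 17 pDC of tumor 1 that held genes of monocytes or neutrophils, described below, the counts against the mean were 288 higher and 51 lower, without tumor 2 they were 193 and 18, and without tumor 3 they were 388 and 40. The counts against the B cells were 252 and 81 without tumor 3. Those against the T cells were 21 and 11 without tumor 1, 74 and 83 without tumor 2 and 333 and 146 without tumor 3, and those against the mononuclear phagocytes were 41 and 202 without tumor 1. Without tumor 1 or without tumor 3 the pDC had 1 sum, so those counts rest on 1 pDC library. With all tumors, the median log2 fold change of all genes tested was 0.02 against the mean, 0.05 against the B cells, 0.12 against the T cells and -0.15 against the mononuclear phagocytes.

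Most of the transcription factors listed for the pDC fate were higher in the pDC than in the mean of the other classes. Of 12 on the list, 7 were higher than that mean, beside 2.35% of all genes, and none was lower. With the tumor block 11 were higher, beside 534 of 9338 genes. Their median log2 fold change was 2.53, beside 0.02 over all genes tested. Compared with the B cells alone, 1 of the 12 was higher, beside 0.643% of all genes, with a median of 1.40. With the block 5 were higher than the B cells, beside 445 of 9338 genes. Irf8, an interferon regulatory factor that dendritic cells and B cells need, had 2731 CPM in the pDC of tumor 1 and 1626 CPM in those of tumor 3. It had 338 CPM in the B cells, 17.6 and 0 CPM in the T cells of tumors 1 and 2, and 171, 173 and 196 CPM in the mononuclear phagocytes of tumors 1, 2 and 3. Both pDC sums thus lay above every other sum, and with Tcf4 and Bst2 all 3 given markers that the rule did not use were higher than the mean. The log2 fold change against the mean was 4.23 ± 0.60 (SE, edgeR adjusted p = 0.000588). Against the B cells alone Irf8 differed by 2.31 ± 0.94, with an edgeR adjusted p of 0.354 without and 0.00968 with the block. The 2 pDC of tumor 2 had 1321 CPM.

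Tcf4 (E2-2), the E protein that maintains the pDC identity, had 1596 and 1513 CPM in the pDC of tumors 1 and 3, and 1698 CPM in the 2 cells of tumor 2. The B cells had 134 CPM, the T cells 57 and 257 CPM, and the mononuclear phagocytes 89.1, 183 and 222 CPM. Every pDC sum was above those of the other immune classes, by 3.30 ± 0.55 on the log2 scale against the mean (edgeR adjusted p = 0.00224). Against the mononuclear phagocytes Tcf4 was higher by 2.98 ± 0.61 (edgeR adjusted p = 0.0146, or 0.0542 without tumor 2). Against the B cells Tcf4 did not pass without the block and passed with it. The call against the T cells was lost without tumor 2, at a log2 fold change of 4.42. Among immune cells the level of Tcf4 set the pDC apart, but it did not do so in the whole tumor. Cells that passed the gate of the neuroblastoma itself (at least 2 of 5 genes of the sympathetic lineage) had 1142, 686 and 731 CPM of Tcf4 in tumors 1, 2 and 3, and endothelial cells had 1404, 1149 and 1149 CPM.

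Spib, an Ets factor shared with B cells, had 389 and 136 CPM in the pDC, 156 CPM in the B cells, 1.46 and 0 CPM in the T cells, and 1.5, 0 and 2.84 CPM in the mononuclear phagocytes. It was higher in the pDC than in the mean by 5.04 ± 0.67 (edgeR adjusted p = 0.000379), while against the B cells the difference was 0.56 ± 0.82 (edgeR adjusted p = 0.998). Bcl11a, a zinc finger factor of lymphoid and pDC development, had 463 and 723 CPM, against 261 CPM in the B cells and between 14.5 and 64.3 CPM in the other sums. It was higher than the mean by 2.88 ± 0.55 (edgeR adjusted p = 0.0075), and it too was not separated from the B cells (0.63 ± 0.81, edgeR adjusted p = 0.987). Runx2, a Runt factor known from bone that also acts in pDC, was different in that the B cells nearly lacked it. It had 347 and 452 CPM in the pDC, 3.54 CPM (3 UMIs) in the B cells, 21.9 and 64.3 CPM in the T cells and between 14.4 and 44.8 CPM in the mononuclear phagocytes. It was higher than the mean by 4.33 ± 0.56 (edgeR adjusted p = 0.000291), and the ratio of pooled levels to the B cells was 99.2 (95% interval from counting 33.7 to 483, edgeR adjusted p = 0.00952).

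Of the remaining factors, Mef2c, a MADS box factor, had 665 and 519 CPM in the pDC and 888 CPM in the B cells, and was higher than the mean by 2.75 ± 0.66 (edgeR adjusted p = 0.036). Irf7, the main switch for type I interferon genes, had 142 and 67.8 CPM, against 13 CPM in the B cells and between 33.6 and 76.7 CPM in the mononuclear phagocytes. It was higher than the mean by 2.31 ± 0.57 (edgeR adjusted p = 0.0396), a call that was lost without tumor 2 (adjusted p = 0.0906), with cells thinned to 1000 UMIs (0.155) and with DESeq2 (0.354). Zeb2, which represses alternative myeloid fates, had 444 and 294 CPM in the pDC and 656, 529 and 705 CPM in the mononuclear phagocytes. Against the mean its difference was 1.64 ± 0.53, with an edgeR adjusted p of 0.156 without and 0.00935 with the block.

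**Figure D2:**
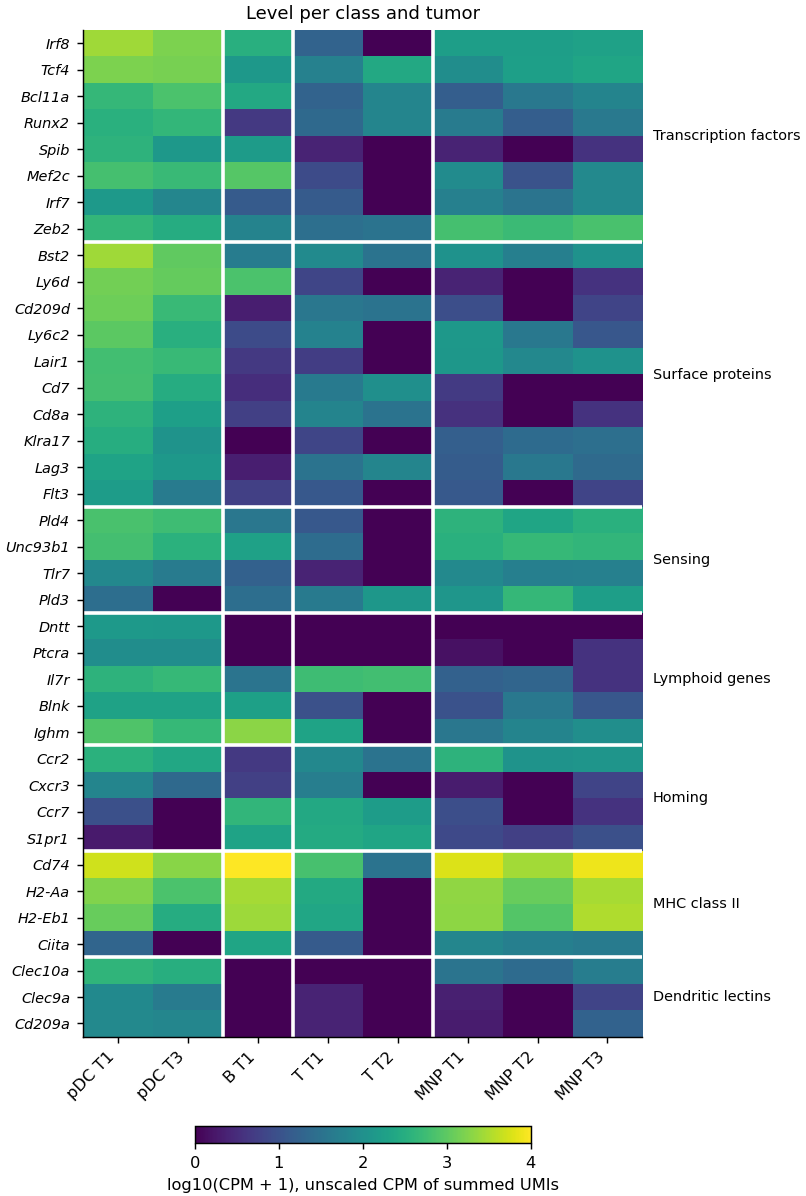
Levels of 38 genes (rows) in the 8 sums of a class and tumor (columns), as log10 of CPM + 1, where the color scale runs from no UMI to the highest level. The columns of the pDC of tumors 1 and 3 are bright for Irf8, Tcf4 and Bst2, for which the B cells, T cells and mononuclear phagocytes are darker.

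Most surface proteins on the list of pDC genes were higher in the pDC. A listed gene with low levels in every other sum, such as Flt3, entered the test only through the pDC, so its call is a description. Of 22 tested, 14 were higher than the mean of the other classes, beside 2.35% of all genes, and none was lower. With the block 20 were higher, beside 534 of 9338 genes. The median log2 fold change was 3.80, or 3.52 when genes without a UMI in a class were set to their bound. Set against the B cells, 7 were higher, beside 0.643% of all genes, and none lower. With the block 15 were higher and 1 lower, beside 445 and 185 of 9338 genes. Bst2, an antiviral tether that is the PDCA-1 antigen of mouse pDC, had 2690 and 1062 CPM in the pDC of tumors 1 and 3. The B cells had 47.2 CPM, the T cells 81.9 and 32.2 CPM, and the mononuclear phagocytes 107, 52.9 and 108 CPM. Both pDC sums were above all others, by 4.66 ± 0.67 against the mean (edgeR adjusted p = 0.000666). Against the B cells the difference was 5.01 ± 1.22, with an edgeR adjusted p of 0.0617 without and 8.56e-08 with the block.

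Ly6d, a surface antigen of early lymphoid cells, B cells and pDC, had 1419 and 1129 CPM in the pDC, 724 CPM in the B cells, 5.85 and 0 CPM in the T cells, and 1.5, 0 and 2.84 CPM in the mononuclear phagocytes. It was higher than the mean by 5.74 ± 0.64 (edgeR adjusted p = 0.000127), and its difference from the B cells was 0.39 ± 0.80 (edgeR adjusted p = 1). Cd209d, a C-type lectin of the DC-SIGN family, had 1307 and 519 CPM in the pDC and no more than 38 CPM in any other sum. It lay above the mean by 6.93 ± 0.78 (edgeR adjusted p = 0.000127). Its near copies Cd209c and Cd209e had 26.9 and 22.6 CPM each in the pDC of tumors 1 and 3, and how reads were split among this family is uncertain. Ly6c2, a surface protein shared with inflammatory monocytes, had 999 and 339 CPM in the pDC, 134, 38.4 and 11.4 CPM in the mononuclear phagocytes and up to 58.5 CPM elsewhere. Against the mean it rose by 4.44 ± 0.85 (edgeR adjusted p = 0.00738, DESeq2 adjusted p = 0.107).

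Several inhibitory or lymphoid surface genes belonged to the 14. Lair1, an inhibitory collagen receptor, had 618 and 497 CPM in the pDC and 131, 72.1 and 108 CPM in the mononuclear phagocytes, and was higher than the mean by 5.26 ± 0.61 (edgeR adjusted p = 0.000153). Lag3, a checkpoint receptor that pDC share with T cells, had 210 and 136 CPM in the pDC, 32.2 and 64.3 CPM in the T cells and 1.18 CPM in the B cells, and was higher than the mean by 3.95 ± 0.59 (edgeR adjusted p = 0.000752). Cd7, an immunoglobulin superfamily protein known from T and NK cells, had 643 and 294 CPM in the pDC and 42.4 and 96.5 CPM in the T cells. Its log2 fold change against the mean was 5.88 ± 0.70 (edgeR adjusted p = 0.000178), and against the T cells it was 3.21 ± 0.83, with an edgeR adjusted p of 0.0566 without and 7.12e-05 with the block. Cd8a, the alpha chain of the CD8 coreceptor, had 382 and 181 CPM in the pDC and 62.9 and 32.2 CPM in the T cells, and was higher than the mean by 4.85 ± 0.63 (edgeR adjusted p = 0.000287). Klra17, a Ly49 family receptor, had 305 and 113 CPM in the pDC and no UMI in the B cells, where the pDC level was at least 59.1-fold higher, and it was higher than in the mononuclear phagocytes by 3.28 ± 0.64 (edgeR adjusted p = 0.0111, or 0.225 without tumor 1).

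Receptors for growth factors were less uniform. The test of Flt3 was reached only through the pDC, so its call is a description. Flt3, the receptor that drives dendritic cell development, had 159 and 45.2 CPM in the pDC and no more than 12 CPM in any other sum (3.79 ± 0.68, edgeR adjusted p = 0.00401). Lifr, a receptor for leukemia inhibitory factor, had 300 and 67.8 CPM (3.82 ± 0.66, edgeR adjusted p = 0.00302). Il3ra, whose human counterpart CD123 marks pDC, had 30.6 CPM in tumor 1 and no UMI in tumor 3, with 11.8 CPM in the B cells and 14.2 to 24 CPM in the mononuclear phagocytes. Its difference from the mean was 0.57 ± 0.71 (edgeR adjusted p = 1). Ptprc (CD45), carried by all white blood cells, had 765 and 723 CPM in the pDC and between 521 and 1040 CPM in the other sums, a difference of -0.16 ± 0.56 (edgeR adjusted p = 1).

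**Figure D3:**
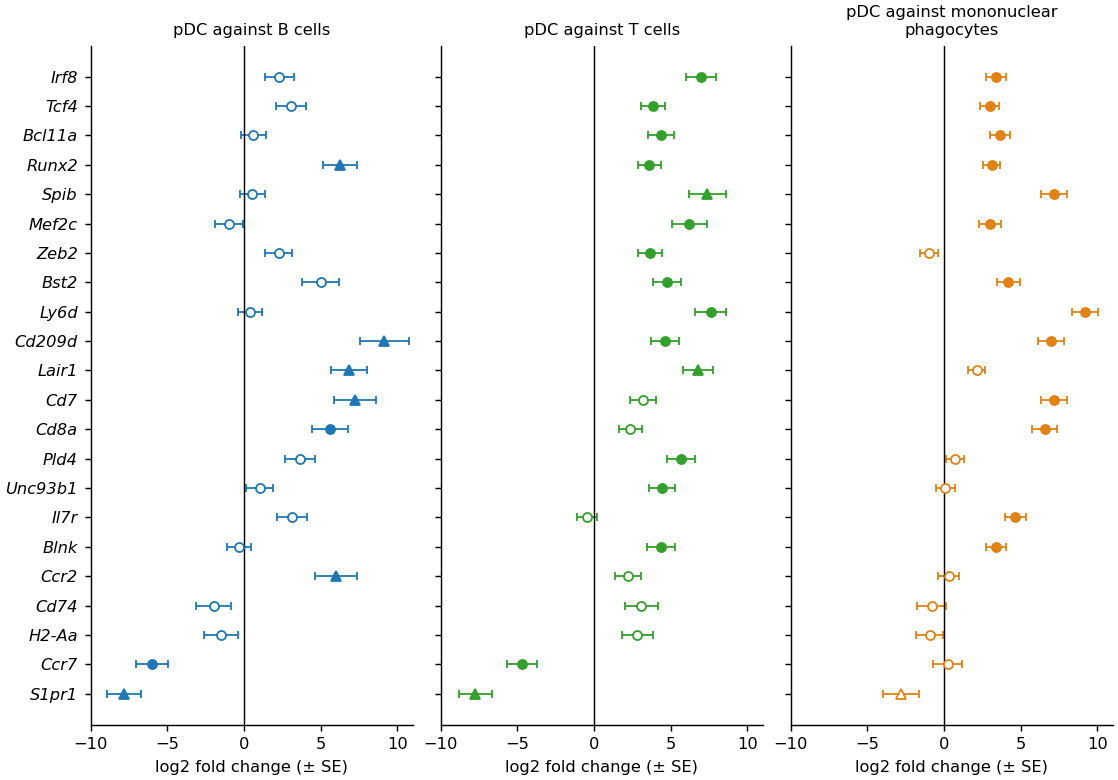
Fitted log2 fold change ± SE (horizontal axis) of 22 genes in the pDC against B cells, T cells and mononuclear phagocytes. Filled symbols passed an edgeR adjusted p of 0.05 and open symbols did not; triangles mark genes with 3 or fewer UMIs on 1 side of the comparison, whose folds rest on few counts. Irf8 passed against the T cells and the mononuclear phagocytes but not the B cells, and Ly6d sits near 0 against the B cells.

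Of 14 genes tested from the machinery that senses nucleic acids in endosomes, 2 were higher in the pDC than in the mean (5 with the block), beside 2.35% of all genes. None was lower, and the median log2 fold change was 1.21. Against the mononuclear phagocytes none passed in the higher direction, beside 1.69% of all genes, 1 was lower (2 with the block), beside 0.6%, and the median was -0.13. The 2 were Irf7, given above, and Pld4, an exonuclease that degrades single-stranded nucleic acids in endolysosomes. Pld4 had 712 and 565 CPM in the pDC, 37.7 CPM in the B cells, 11.7 and 0 CPM in the T cells and 388, 221 and 350 CPM in the mononuclear phagocytes. The log2 difference from the mean was 3.37 ± 0.57 (edgeR adjusted p = 0.00246), and its difference from the mononuclear phagocytes was 0.73 ± 0.59 (edgeR adjusted p = 0.823). The gene that was lower than in the mononuclear phagocytes was its relative Pld3, with 26.9 and 0 CPM against 126, 461 and 176 CPM (-3.52 ± 0.81, edgeR adjusted p = 0.0312, or 0.0811 without tumor 2).

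Unc93b1, the chaperone that brings Toll-like receptors to endosomes, had 629 and 361 CPM in the pDC, 193 CPM in the B cells, 24.9 and 0 CPM in the T cells and 341, 485 and 423 CPM in the mononuclear phagocytes. Against the mean it differed by 1.85 ± 0.57, with an edgeR adjusted p of 0.126 without and 0.000959 with the block. Tlr7, the receptor for single-stranded RNA, had 73.2 and 45.2 CPM in the pDC and 76.6, 52.9 and 54 CPM in the mononuclear phagocytes, so that the ranges of these classes overlapped. Its difference from the mean was 2.29 ± 0.61 (edgeR adjusted p = 0.061, or 0.00425 with the block). Tlr9, the receptor for CpG DNA, was at the edge of detection and was not tested. It had 4.64 and 22.6 CPM in the pDC of tumors 1 and 3, found in 5 cells and 1 cell, out of 17 UMIs in all kept cells.

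Interferon transcripts themselves were nearly undetected. Over all 20 genes of type I and type III interferons, the 102 pDC of tumor 1 held 1 UMI, of Ifnl2, and those of tumors 2 and 3 held none. At these depths an interferon gene with no UMI in the pDC could still have reached 2.78 CPM in tumor 1 and 67.8 CPM in tumor 3. Of 13 genes tested from a list of interferon-stimulated genes, which does not hold Bst2 and Irf7, none passed against the mean, the B cells, the T cells or the mononuclear phagocytes. With the block 1 was higher than the mean, 1 than the B cells and 1 than the T cells, and 2 were lower than in the mononuclear phagocytes. The median log2 fold change of the 13 genes against the mean was -0.60, or -0.79 at the bounds. Over all genes tested, 2.44% passed against the mean in either direction without the block. The list summed to 676, 0 and 181 CPM in the pDC of tumors 1, 2 and 3, and to 1109, 264 and 955 CPM in the mononuclear phagocytes. Ifi27l2a, an interferon-induced mitochondrial protein, had 336 and 136 CPM in the pDC, 309 CPM in the B cells and 707, 87 and 389 CPM in the mononuclear phagocytes, a difference of -0.79 ± 0.93 from the mean (edgeR adjusted p = 1). Isg15, a ubiquitin-like protein, had 24.1 CPM in tumor 1 and none in tumor 3.

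Of 19 genes tested from the secretory pathway, 2 were higher than the mean (3 with the block), beside 2.35% of all genes, and none was lower. The estimate was above 0 for 17 of the 19, with a median log2 fold change of 0.54. Xbp1, the factor that expands the endoplasmic reticulum, had 490 and 158 CPM in the pDC, 28.3 CPM in the B cells, 45.3 and 64.3 CPM in the T cells and 182, 86.5 and 54 CPM in the mononuclear phagocytes. It lay above the mean by 2.54 ± 0.62 (edgeR adjusted p = 0.0385), a call lost without tumor 2 (adjusted p = 0.0929) and with DESeq2 (0.0903). Mzb1, a chaperone of immunoglobulin assembly known from plasma cells and marginal zone B cells, had 206 and 90.3 CPM in the pDC, 298 CPM in the B cells and no more than 2.93 CPM elsewhere. Against the mean it rose by 3.88 ± 0.63 (edgeR adjusted p = 0.00172), with a difference of -1.20 ± 0.75 from the B cells (edgeR adjusted p = 0.777). The abundant genes of the endoplasmic reticulum did not pass. Sec61b, a subunit of the translocon, had 771 and 519 CPM (0.78 ± 0.57), Hsp90b1, a chaperone, 768 and 497 CPM (0.74 ± 0.54), and Hspa5, the chaperone BiP, 660 and 700 CPM (0.43 ± 0.51).

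Of 8 tested transcripts known from lymphocytes and their precursors, 4 were higher than the mean, also with the block, beside 2.35% of all genes, and none was lower, with a median log2 fold change of 1.75. Against the B cells 2 were higher (3 with the block), beside 0.643% of all genes, and 3 lower, beside 0.6%. Dntt and Ptcra were among the 4 and were the 2 called against the B cells without the block. Both entered the test only through the pDC, so their calls are a description, and Il7r and Blnk were the other 2 of the 4. Dntt, the terminal transferase that adds bases to rearranging antigen receptor genes, had 146 CPM in the pDC of tumor 1 and 136 CPM in those of tumor 3, and no UMI in any of the other 6 sums. Its 164 pDC UMIs were 94.3% of those in all kept cells, and they were found in 51, 1 and 3 pDC of tumors 1, 2 and 3. The pDC level was at least 39.7-fold higher than in the B cells, at least 33.5-fold higher than in the T cells and at least 213-fold higher than in the mononuclear phagocytes, against a floor of 3 counts over each class. With no UMI elsewhere Dntt entered the test only through the pDC, so these bounds are a description. Ptcra, the pre-T cell receptor alpha chain, had 91.8 and 90.3 CPM in the pDC and no UMI in the sums of B or T cells, at least 25.7-fold and at least 21.7-fold higher. With 3 UMIs in the mononuclear phagocytes, Ptcra too entered the test only through the pDC. The bound against the B cells rests on tumor 1, since 2 UMIs lay in the 8 B cells of tumor 2, and with sums of at least 3 cells the edgeR adjusted p against the B cells was 0.400. It was found in 31 pDC of tumor 1 and 4 of tumor 3. Neither gene was thus carried by a single cell or by 1 tumor.

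The other lymphoid genes were shared with 1 of the lymphocyte classes. Il7r, a cytokine receptor of developing lymphocytes and T cells, had 386 and 474 CPM in the pDC, 565 and 611 CPM in the T cells, 34.2 CPM in the B cells and 2.84 to 19.2 CPM in the mononuclear phagocytes. The log2 difference from the mean was 2.45 ± 0.55 (edgeR adjusted p = 0.0224, or 0.0613 without tumor 2 and 0.0507 with thinned cells), and differed from the T cells by -0.45 ± 0.67 (edgeR adjusted p = 0.982). Blnk, an adaptor of the B cell receptor, had 200 and 203 CPM in the pDC and 188 CPM in the B cells. It lay above the mean by 2.49 ± 0.58 (edgeR adjusted p = 0.0286, DESeq2 adjusted p = 0.108) and differed from the B cells by -0.31 ± 0.78 (edgeR adjusted p = 1). Ighm, the heavy chain of IgM, had 785 and 474 CPM in the pDC against 2042 CPM in the B cells, and had a UMI in 99 of 102 pDC of tumor 1 and 10 of 17 of tumor 3. Its difference from the mean was 1.05 ± 0.71 (edgeR adjusted p = 0.86). Igkc, the kappa light chain, had 384 and 136 CPM against 14708 CPM in the B cells, and was lower than there by 6.05 ± 1.38 on the log2 scale (edgeR adjusted p = 0.0434, DESeq2 adjusted p = 0.666).

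Of 12 receptors for chemokines and egress tested, 1 was higher and 1 lower than the mean (4 and 2 with the block), beside 2.35% and 0.0964% of all genes, with a median of 0.68. Ccr2, the receptor that brings monocytes to tissues, had 361 and 248 CPM in the pDC, 3.54 CPM in the B cells, 71.7 and 32.2 CPM in the T cells and 384, 111 and 119 CPM in the mononuclear phagocytes. Against the mean it rose by 2.86 ± 0.67 (edgeR adjusted p = 0.0305, or 0.0613 without tumor 2 and 0.157 with thinned cells). S1pr1, the sphingosine phosphate receptor by which lymphocytes leave tissue, was the lower gene, with 1 UMI in the pDC of both tumors together. The B cells had 206 CPM, the T cells 276 and 225 CPM, and the mononuclear phagocytes 4.81 to 8.52 CPM. Its pooled level was 308 times that of the pDC in the T cells (95% interval from counting 54.6 to 12221) and 232 times in the B cells (41.1 to 9205), with an edgeR adjusted p of 0.00246 against the mean. Ccr7, the receptor that leads cells to lymph nodes, had 8.34 and 0 CPM in the pDC, 422 CPM in the B cells and 257 and 161 CPM in the T cells. It was lower than in the B cells by 5.99 ± 1.03 (edgeR adjusted p = 0.00843) and than in the T cells by 4.69 ± 0.97 (edgeR adjusted p = 0.0179). Against the mean Ccr7 differed by -3.47 ± 0.89, with an edgeR adjusted p of 0.0526 without and 9.14e-05 with the block. Cxcr3, a receptor for interferon-induced chemokines, had 65.8 and 22.6 CPM in the pDC. Its difference from the mean was 2.81 ± 0.73, with an edgeR adjusted p of 0.0561 without and 0.000201 with the block.

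Of 11 genes tested from antigen presentation on MHC class II, none passed against the mean (1 was higher with the block), and the median was 0.10. Against the B cells 3 were lower (4 with the block), beside 0.6% of all genes, with a median of -1.98. Against the T cells 1 was higher (7 with the block), beside 1.45% of all genes, with a median of 2.52. Against the mononuclear phagocytes none passed, or 1 higher and 6 lower with the block, with a median of -0.81. Cd74, the invariant chain, had 5225 and 1920 CPM in the pDC, 11426 CPM in the B cells, 673 and 32.2 CPM in the T cells and 6097, 2787 and 7976 CPM in the mononuclear phagocytes. Its difference from the mean was 0.10 ± 0.82 (edgeR adjusted p = 1). The pDC sums of H2-Aa, an MHC class II alpha chain, were 1773 and 745 CPM, and those of the beta chain H2-Ab1 were 1456 and 587 CPM. H2-Eb1, another beta chain, had 1178 and 294 CPM in the pDC, 2579 CPM in the B cells and 2088, 851 and 3350 CPM in the mononuclear phagocytes. The 3 genes lower than in the B cells were Ciita, the coactivator that switches on MHC class II genes, and H2-DMb2 and H2-Ob, which shape peptide loading. Ciita had 19.5 and 0 CPM against 222 CPM in the B cells (-3.94 ± 0.84, edgeR adjusted p = 0.0299, DESeq2 adjusted p = 0.07). H2-Ob had 11.1 and 0 CPM against 376 CPM (-5.43 ± 0.89, edgeR adjusted p = 0.0063), and H2-DMb2 had 5.56 and 45.2 CPM against 314 CPM (-5.32 ± 0.93, edgeR adjusted p = 0.00851).

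Few costimulatory molecules passed the test. Of 13 tested with cytokines and inhibitory ligands, 1 was higher than the mean (2 with the block), beside 2.35% of all genes. None was lower, and the median was -0.18. Cd86, a ligand of CD28, had 12.1 and 22.6 CPM in the pDC, 50.7 CPM in the B cells and 67.5, 120 and 102 CPM in the mononuclear phagocytes. It was lower than in the mononuclear phagocytes by 2.90 ± 0.69 (edgeR adjusted p = 0.0349), a call lost when any single tumor was left out (adjusted p = 0.163, 0.0782 and 0.0608 without tumors 1, 2 and 3). Cd40 had 2 UMIs in the pDC, and the B cells held 32.4 times its pooled level (95% interval from counting 8.51 to 275, edgeR adjusted p = 0.0467, DESeq2 adjusted p = 0.295). The 1 gene called higher than the mean, Il12b, a subunit of interleukin cytokines made by activated dendritic cells, cannot be read as a level of the class. Of its 110 UMIs in the pDC, 109 lay in 1 cell of tumor 1, and none was found in tumor 3.

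Of 9 genes tested from a list of conventional dendritic cells, 4 were higher in the pDC than in the mean, also with the block, beside 2.35% of all genes. None was lower, and the median was 1.69, or 1.52 at the bounds. All 4 are surface molecules. Clec9a and Cd209a entered the test only through the pDC, so their calls are a description. Clec10a, a galactose-binding lectin, had 406 and 316 CPM in the pDC, no UMI in the B or T cells and 34, 24 and 48.3 CPM in the mononuclear phagocytes, and was found in 86 of 102 pDC of tumor 1 and 7 of 17 of tumor 3. It was higher than in the mononuclear phagocytes by 3.09 ± 0.58 (edgeR adjusted p = 0.00962), and at least 102-fold and at least 86.1-fold higher than in B and T cells. Clec9a, a lectin that binds exposed actin of dead cells, had 78.8 and 45.2 CPM in the pDC and at most 5.68 CPM in any other sum (edgeR adjusted p against the mean = 0.000659). Cd209a, a DC-SIGN lectin, had 75.1 and 67.8 CPM and at most 17 CPM elsewhere (edgeR adjusted p against the mean = 0.00415). Itgax, the integrin CD11c, had 113 and 181 CPM in the pDC, no UMI in the B cells and 75.1, 57.7 and 71 CPM in the mononuclear phagocytes, from which it differed by 0.68 ± 0.53 (edgeR adjusted p = 0.8). Batf3, a factor of the cross-presenting dendritic cells, had 3 UMIs in the pDC, and Itgae (CD103) none. Id2, which conventional dendritic cells need, had 208 and 45.2 CPM in the pDC and 674, 687 and 384 CPM in the mononuclear phagocytes. With cells thinned to 1000 UMIs, Cd209a and Itgax no longer passed against the mean (edgeR adjusted p = 0.0551 and 0.0592).

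Beyond the lists, the genes with the largest difference from the mean included some with no or few UMIs in the B cell, T cell and mononuclear phagocyte sums. These entered the test only through the pDC, so their values and bounds are a description. Sh3bgr, a small protein known from heart and skeletal muscle, had 90.9 and 67.8 CPM in the pDC and no UMI in the other 6 sums. It was at least 22.4-fold, 18.9-fold and 120-fold higher than in B cells, T cells and mononuclear phagocytes, and 81.0% of its UMIs in all kept cells lay in the pDC. Atp2a1, the calcium pump SERCA of fast muscle, had 86.2 and 45.2 CPM and was at least 18.6-fold and 15.7-fold higher than in B and T cells. The mononuclear phagocytes held 1 UMI of Atp2a1, and its DESeq2 adjusted p against the mean was 0.939.

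Slco4a1, an organic anion transporter, had 76 and 203 CPM in the pDC, no UMI in B cells or mononuclear phagocytes and 1.46 and 0 CPM in the T cells. Lefty1, a secreted inhibitor of Nodal signaling, had 115 and 45.2 CPM, and Paqr5, a membrane progestin receptor, 108 and 113 CPM. Slco4a1, Lefty1 and Paqr5 likewise entered the test only through the pDC, so their values are a description. The unnamed gene models Gm12253 and Gm21762 had 75.1 and 90.3 CPM, and 108 and 45.2 CPM, and the other 6 sums held none and 1 of their UMIs. With Dntt, Ptcra and Clec10a these are the 10 genes with the largest fold that met the rule for naming.

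The 9 genes lower than the mean were all at 0 in the pDC of tumor 3, where 0 allows up to 67.8 CPM, so their difference was measured in tumor 1. Cd2, an adhesion molecule of T and NK cells, had 2 UMIs in the pDC of tumor 1, 107 CPM in the B cells and 272 and 193 CPM in the T cells (edgeR adjusted p = 0.0188). Trib2, a pseudokinase, had 2 UMIs, 133 CPM in the B cells and 104 and 96.5 CPM in the T cells (edgeR adjusted p = 0.033). Dgka, a diacylglycerol kinase that limits T cell receptor signals, had 3 UMIs, with 174 and 96.5 CPM in the T cells (edgeR adjusted p = 0.0149). Ptpn22, a phosphatase that restrains antigen receptor signals, had 10.2 CPM in the pDC of tumor 1, 152 CPM in the B cells and 235 and 129 CPM in the T cells, a difference of -3.66 ± 0.79 (edgeR adjusted p = 0.0169). Cd84, an adhesion receptor of the SLAM family, had 12.1 CPM in tumor 1 and between 70.8 and 193 CPM in the other sums, a difference of -3.36 ± 0.72 (edgeR adjusted p = 0.0171). Neurl3, a ubiquitin ligase, differed by -3.27 ± 0.74 (edgeR adjusted p = 0.024). Besides S1pr1, the others were Gm8369 and Tspan32, with edgeR adjusted p of 0.0369 and 0.0385. With cells thinned to 1000 UMIs, Cd2 (edgeR adjusted p = 0.738), Cd84 (0.317), Trib2 (0.294), Tspan32 (0.157), Dgka (0.114), Gm8369 (0.0652) and S1pr1 (0.0551) no longer passed.

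How far single genes were confined to the pDC was also read over all kept cells, whatever their class, as a description. Of 6110 genes with at least 20 UMIs in the pDC, 80 had at least 50% of their UMIs in the pDC and 21 at least 90%, although the pDC held 5.48% of all UMIs. Of the 21, 3 were rule genes: Klk1 (98.7%), Cox6a2 (94.9%) and Siglech (94.1%). The others included Gm21762 (98.3%), Klk1b27 (97.5%), Cd300c (94.4%), an activating receptor, Dntt (94.3%), Cd209d (92.4%), Havcr1 (92.1%), a phosphatidylserine receptor of the TIM family, Paqr5 (91.8%), Upb1 (91.4%), an enzyme of pyrimidine breakdown, Atp2a1 (91.3%) and Smim5 (90.3%). Klk1b27 is a near copy of the rule gene Klk1, had 356 CPM in tumor 1 and none in tumor 3, and its reads may not be separable from those of Klk1. Upb1 had 379 and 113 CPM in the pDC.

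To set the share of cells with a UMI on an equal depth, each cell was thinned to 1000 UMIs, which left out 4 pDC of tumor 1, and the tumor cells of the same library were used as a class that should lack most pDC genes. At this depth Irf8 was found in 87.8% of 98 pDC of tumor 1 (95% exact interval 79.6 to 93.5) and 70.6% of 17 of tumor 3 (44.0 to 89.7), and in 0% and 1.36% of the tumor cells. Bst2 was found in 87.8% and 47.1% of pDC, and in 1.49% and 0.814% of tumor cells. Cd209d was found in 78.6% and 29.4% of pDC and in no tumor cell. These shares were far above those of the tumor cells, which had a median of 2504 and 2026 UMIs before thinning, against 10952 and 2502 in the pDC. Ly6d was found in 54.1% and 47.1% of pDC. For Tcf4 the pDC share was 73.5% (63.6 to 81.9) and 82.4% (56.6 to 96.2), but the tumor cells had it in 59.7% and 47.5%. Without thinning, Irf8 was found in 100% of the 102 pDC of tumor 1 and Tcf4 and Bst2 in 97.1% each.

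**Figure D4:**
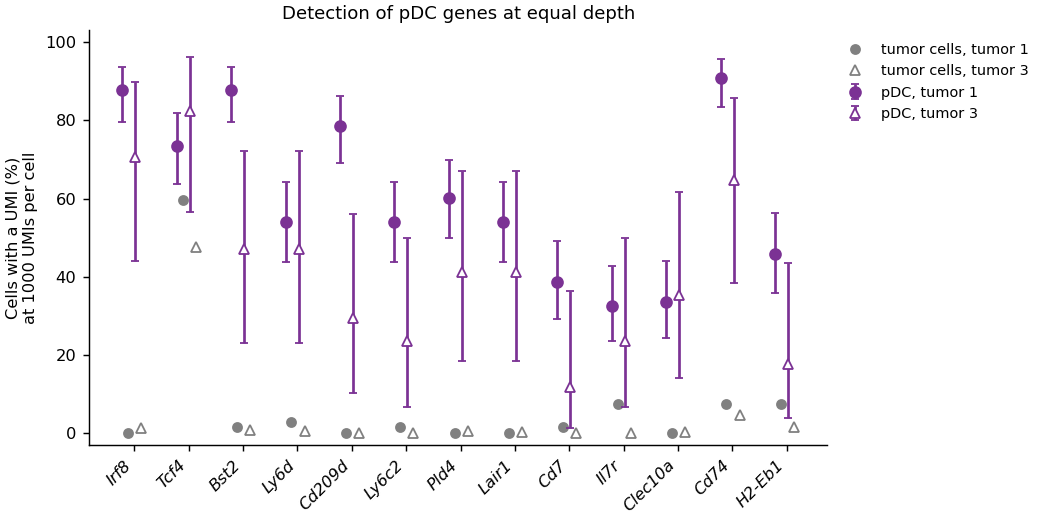
Percent of cells with a UMI of 13 genes after thinning each cell to 1000 UMIs, for pDC of tumor 1 (filled circles) and tumor 3 (open triangles) with exact 95% intervals, and for tumor cells of the same libraries (grey). For Irf8 the pDC are at 87.8% and 70.6% and the tumor cells at 0% and 1.36%, while for Tcf4 the tumor cells reach 59.7% and 47.5%.

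The pDC of tumors 1 and 3 differed in level for some genes, and with 1 library each this has no test. Bst2 had 2690 CPM in tumor 1 and 1062 CPM in tumor 3, and at 1000 UMIs its intervals of the share of cells did not overlap (79.6 to 93.5 against 23.0 to 72.2). Klk1 had 409 and 45.2 CPM, and Cd74 5225 and 1920 CPM. Tcf4, with 1596 and 1513 CPM, and Dntt, with 146 and 136 CPM, were alike in the point values. Median mitochondrial shares were 5.38%, 7.43% and 10.1% in the pDC of tumors 1, 2 and 3, and their part in these differences was not tested.

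Within the pDC of tumor 1, thinned to 1000 UMIs per cell, the most uneven genes were of other cell types. S100a8, S100a9 and Apoe had a variance of 34.0, 33.9 and 32.6 times their mean and were found in 2, 6 and 6 of 98 cells. Of the UMIs in all 102 pDC, a single cell held 363 of 380 of S100a8, 499 of 525 of S100a9 and, in the case of Apoe, 1254 of 1308. Lyz2, the lysozyme of myeloid cells, was found in 21 cells, with 713, 328 and 274 of its 1684 UMIs in 3 single cells. Among MHC class II genes, H2-Eb1 varied by 8.48 times its mean and was found in 45 of 98 cells, and Cd74 varied by 4.58 times and was found in 89.

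The lists of other cell types showed which signals moved with the pDC sums. Monocyte and macrophage genes summed to 3661, 189 and 203 CPM in the pDC of tumors 1, 2 and 3, against 22393, 45409 and 20520 CPM in the mononuclear phagocytes. Of 12 tested, 6 were lower than in the mononuclear phagocytes (12 with the block), beside 0.6% of all genes. None was higher, and the median was -3.62. In the comparison with the B cells none passed (8 higher with the block, median 3.60). Against the T cells 1 was higher, beside 1.45% of all genes (6 higher and 1 lower with the block, median 2.53), and against the mean none passed (3 higher and 1 lower with the block). The B cell and T cell lists summed to 57.5 and 54.7 CPM in the pDC of tumor 1, the NK list to 12.1 and the plasma cell list to 63.1. Neutrophil genes summed to 910 CPM in tumor 1 and 0 in tumors 2 and 3, against 147371 CPM in the neutrophils of tumor 1. S100a8 and S100a9, which made up most of that sum, were the 2 of 5 tested genes of that list that were called higher than the mean (edgeR adjusted p = 0.0429 and 0.0317, 3 genes with the block), but 1 cell held nearly all of their UMIs, as given above. Endothelial and fibroblast genes were read in single pDC as well. In tumor 1, 39 of 102 pDC passed the gate of endothelial cells (at least 2 of Cdh5, Pecam1, Vwf and Kdr) and 14 that of fibroblasts, against 1 and 0 of 17 in tumor 3. The gate of tumor cells went the other way, passed by 0 of 102 pDC in tumor 1, 1 of 2 in tumor 2 and 3 of 17 in tumor 3. Cdh5, the cadherin of endothelial junctions, had 112 and 45.2 CPM in the pDC of tumors 1 and 3, in 55 cells and 1 cell, at most 4.72 CPM in the sums of B cells, T cells and mononuclear phagocytes and 1569 CPM in the endothelial cells of tumor 1. Cells of the other classes that passed this endothelial gate had been left out, so the levels of its genes are a description. Pecam1, an adhesion molecule of endothelium and many white blood cells, had 106 and 90.3 CPM in the pDC. Kdr, a receptor for endothelial growth factor, had 20.4 and 22.6 CPM, and Vwf, which defines endothelium, had no UMI in the pDC. Of the 191 UMIs of the fibroblast gene Dcn, 184 lay in 1 pDC of tumor 1. Genes of the neuroblastoma cells were at 14.8 CPM in the pDC of tumor 1 and at 566 and 1242 CPM in those of tumors 2 and 3, where the mononuclear phagocytes had 356 and 744.5 CPM and the tumor cells 3286 and 3503 CPM. Mitosis genes likewise stood at 64.9, 1132 and 1784 CPM in the pDC and at 96.6, 1091 and 1137 CPM in the mononuclear phagocytes. Of the 14 genes of mitosis, 12 of DNA replication and 15 of the immediate early and stress response tested, none passed against the mean in either direction, and with the block 1 of mitosis and 1 of the stress response were lower. With the block 8 mitosis genes were lower than in the T cells and 6 of the stress response lower than in the mononuclear phagocytes. The part of free RNA or of joined cells in these sums was not tested.

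**Figure D5:**
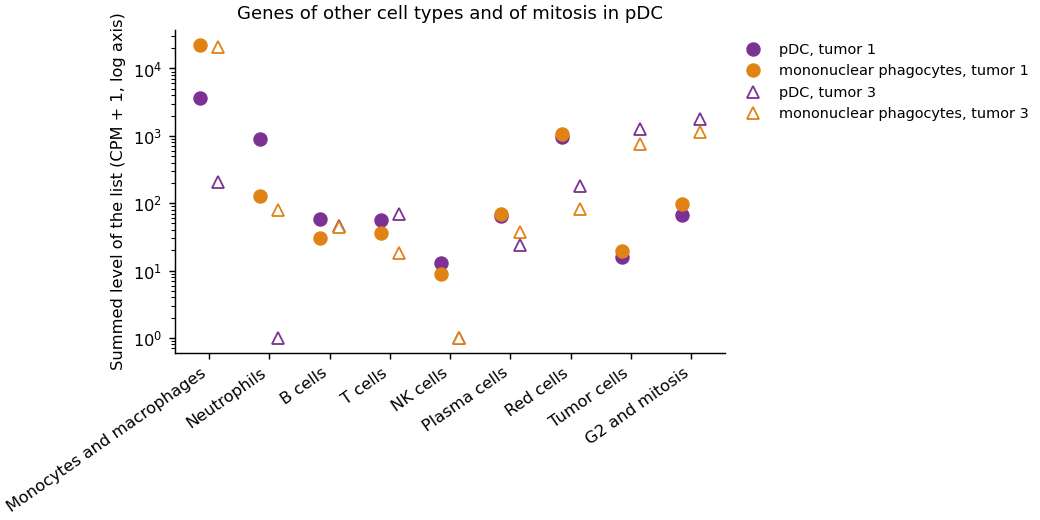
Summed level of 9 gene lists of other cell types and states (CPM + 1, log axis) in the pDC and in the mononuclear phagocytes, for tumor 1 (filled symbols) and tumor 3 (triangles). Monocyte and macrophage genes are at 3661 and 203 CPM in the pDC and at 22393 and 20520 CPM in the mononuclear phagocytes, and tumor cell genes are at 14.8 CPM in the pDC of tumor 1 and 1242 CPM in those of tumor 3.

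Leaving out the 17 pDC of tumor 1 that held at least 3 genes of the monocyte and macrophage list or of the neutrophil list left 85 cells with a median of 10524 UMIs. The monocyte and macrophage list then stood at 138 CPM in place of 3661, and the neutrophil list at 53.3 in place of 910. As these lists chose the cells left out, their fall was set by that choice and is a description. Il12b had no UMI left and S100a8 had 12. The list of conventional dendritic cells changed little, from 1011 to 903 CPM, and that of MHC class II from 11043 to 11694 CPM. Without those cells, Clec10a, Clec9a, Cd209a and Itgax were still called higher than the mean by edgeR. The calls of Clec9a and Cd209a remain a description.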

How the data were processed

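Whole TH-MYCN mouse tumors (3 tumors, 1 per mouse, 1 group) were profiled with a droplet 3′ kit. For each tumor the authors deposited raw UMI counts per gene and barcode, made per the submitters' processing notes with Cell Ranger 3.1.0 on mm10, and normalized values made with Seurat 3.1.5, which hold a corrected count on a natural log scale (after adding 1), once they had removed free RNA, doublets and barcodes outside limits set per tumor. The deposited log values defined the kept cells and served in 1 alternative. All results were computed from raw counts, and no further doublets were called.

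UMIs were summed for each class of a tumor with at least 10 cells and tested in R 4.3.3 with edgeR 4.0.16 (filter on low counts, TMM factors, quasi-likelihood tests, Benjamini-Hochberg over all genes tested, threshold 0.05). The B cells had 1 sum, assumed to vary like the other classes, and p values measure only the spread between these 8 sums. The steps were run on simulated sums with known changes. These were drawn independently with a fixed spread, so they cannot check the pairing by mouse. Sums of 1 tumor come from 1 mouse and are paired: over 9338 genes, deviations from class means correlated at 0.133 to 0.379 within a tumor and at -0.379 to 0.204 between tumors, so that the pairing rests on the shared animal. In classes with 2 sums these deviations mirror each other. The lists, members and tests were chosen with earlier results of these data known. By rule, the genes named are those of the cell rule, the markers, the 4 genes of each list with the highest pDC level, genes behind a count of 5 or fewer, and the 10 largest in each direction with at least 50 CPM. Runx2, Spib, Zeb2, Ly6c2, Lair1, Lag3, Cd7, Cd8a, Klra17, Flt3, Lifr, Il3ra, Tlr7, Tlr9, Isg15, Igkc, Ccr7, Cxcr3, Cd40, Batf3, Itgae, Id2, Cdh5, Pecam1, Kdr, Vwf, Dcn and genes read for their share of UMIs in the pDC were added after their values were seen. Ratios with 3 or fewer UMIs on 1 side have exact 95% intervals from pooled counts. Alternatives were DESeq2 1.42.0, no filter, the tumor block, leaving out a tumor, at least 3 cells in a sum, at least 3 rule genes, corrected counts and thinned cells. Scaling by library sizes alone and leaving out pDC with monocyte or neutrophil genes were added after seeing the data. Results for some genes are not reported here.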

Additional observations from a re-analysis of the deposited data

Results flagged for a closer look

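Some raw barcodes that the authors did not keep also met the pDC rule, and these lie outside the comparisons above. In tumor 1, 15 of 117 raw barcodes that met the rule were removed, with a median mitochondrial share of 20.9% and a median of 2433 UMIs, and 9 of them had a mitochondrial share of at least 20%. In tumor 3, 4 of 21 were removed, at a median of 31.1% and 2962 UMIs, and 3 of them had at least 20%. In tumor 2 it was 1 of 3. Of the barcodes that met the rule, 87.2%, 66.7% and 81.0% were kept in tumors 1, 2 and 3, against 58.8%, 28.2% and 41.7% of all raw barcodes. The cause of the difference was not tested.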

How the results depend on the processing

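In no alternative was a gene that had been called turned to a call in the opposite direction, but the counts of calls moved. Higher and lower genes against the mean, the B cells, the T cells and the mononuclear phagocytes were, without a filter on low counts, 417 and 38, 227 and 105, 278 and 129, and 310 and 218. With the replicate block that pairs sums of 1 tumor they were 534 and 99, 445 and 185, 489 and 250, and 367 and 508, and of 182 calls on named genes none was lost under the block. With corrected counts they were 343 and 39, 179 and 99, 238 and 101, and 265 and 238. DESeq2 gave 100 higher against the mean, 32 lower against the B cells, 75 and 34 against the T cells and 85 higher against the mononuclear phagocytes, and ended 61 of the 182 calls. With cells thinned to 1000 UMIs the counts were 88 and 4, 14 and 25, and 50 and 18, with 56 higher against the mononuclear phagocytes. With at least 3 of 5 rule genes they were 390 and 17, 240 higher against the B cells, 336 and 100 against the T cells and 245 higher against the mononuclear phagocytes. At least 3 cells in a sum gave 105 and 37 against the B cells. Library sizes alone gave 332 and 16, 193 higher against the B cells, 216 higher against the T cells and 247 and 108 against the mononuclear phagocytes, and moved the median of all genes from 0.02 to 0.20 against the mean and from 0.05 to 0.39 against the B cells. Without the pDC that held monocyte or neutrophil genes there were 51 lower against the mean, 93 higher against the B cells, 95 lower against the T cells and 254 and 365 against the mononuclear phagocytes, and S100a8 reversed to -0.59. Leaving out 1 tumor gave 193 to 388 and 18 to 40 against the mean, 65 to 252 and 61 to 81 against the B cells, 21 to 333 and 11 to 146 against the T cells, and 41 to 214 and 38 to 202 against the mononuclear phagocytes. Without tumor 1 no B cell sum was left, so that neither the mean nor the B cells could be compared. With at least 3 of 5 rule genes tumor 3 had 5 pDC and gave no sum. In that setting, and without tumor 1 or tumor 3, the pDC had 1 sum, so those counts rest on 1 pDC library. The cause of these moves was not tested. Where pDC with monocyte or neutrophil genes were left out, the genes of those lists chose the cells, so their own changes are a description. With corrected counts the rule found 0% pDC in tumor 2, where Siglech is not among the genes, and with at least 3 of 5 rule genes 0.199% in tumor 3. At 500 UMIs and without thinning, Irf8 was found in 76.5% and 100% of pDC of tumor 1, Tcf4 in 54.9% and 97.1% and Bst2 in 71.6% and 97.1%. On corrected counts the pDC of tumors 1 and 3 had 4246 and 2378 CPM of Irf8 and 2465 and 2056 CPM of Tcf4, and those of tumor 1 had 4196 CPM of Bst2. The 44277 pDC UMIs of tumor 3 limit what can be read there.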
